A study of Arabidopsis thaliana with 18 samples.

Results

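The genes described here encode the 4 small subunits of Rubisco and 6 further proteins of carbon fixation in Arabidopsis thaliana leaves. They were RBCS1A (AT1G67090), RBCS1B (AT5G38430), RBCS2B (AT5G38420), RBCS3B (AT5G38410), RCA (AT2G39730), PRK (AT1G32060), SBPASE (AT3G55800), GAPA1 (AT3G26650), GAPB (AT1G42970) and HCEF1 (AT3G54050). They were picked by locus identifier, and all 10 were found among the 33602 loci of the count table. The study asked how leaves respond when the chloroplast produces singlet oxygen, and what the ubiquitin ligase PUB4 contributes. There were 6 groups of 3 libraries. The fc2 pub4 plants carried the fc2-1 and pub4-6 alleles, the fc2 plants carried fc2-1 alone, and the wild type (wt) was Col-0. fc2-1 is a T-DNA insertion in the gene of plastid ferrochelatase 2, and pub4-6 is a point mutation in the U-box domain of PUB4. Each mutation was thus studied as 1 allele, and no plant with pub4-6 alone was among the libraries. Cycling light meant 17 days of constant light followed by 2 days of 16 h light and 8 h dark, and plants in 24 h light stayed in constant light for the full 19 days. Leaves were taken on day 19, 1 h after subjective dawn, and those of 3 plants were pooled for each library. The paper's own text also gives a schedule that is 1 day shorter, and the days given here are those of the sample labels. The 24 h and cycling groups therefore differed both in the light schedule and in having passed a night, and these cannot be told apart.

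The Calvin cycle builds sugar phosphates from carbon dioxide in the chloroplast stroma. Rubisco fixes the carbon. Its large subunit is encoded by the plastid gene rbcL, and its small subunits come from a small family of nuclear RBCS genes whose products are imported into the chloroplast. Rubisco activase (RCA) frees Rubisco of inhibitory sugar phosphates. The photosynthetic glyceraldehyde 3-phosphate dehydrogenase, made of A subunits (GAPA1) and B subunits (GAPB), carries out the reducing step of the cycle. The plastid fructose 1,6-bisphosphatase HCEF1 and the sedoheptulose 1,7-bisphosphatase SBPASE commit carbon to the regeneration of the acceptor, and phosphoribulokinase (PRK) makes the acceptor itself. In leaves the mRNAs of these genes are among the most abundant, they are induced by light, and they are known to be lowered when chloroplasts are damaged.

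The 4 RBCS genes are so alike that their sequences bear on how reads could be assigned to them. RBCS1A lies alone at chr1:25048158-25049667 on the minus strand. RBCS3B (chr5:15376988-15378642), RBCS2B (chr5:15380907-15382071) and RBCS1B (chr5:15383167-15385320) follow each other on the minus strand of chromosome 5, with 2264 and 1095 bases between neighbours. The stretch of coding sequence from base 22 to base 81, counted from the start codon, is shown because it holds 16 positions at which the genes differ. Capitals mark bases that are not those of RBCS1A. All sequences are from the RefSeq copy of TAIR10.1.
RBCS1A: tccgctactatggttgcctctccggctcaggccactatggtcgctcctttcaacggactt
RBCS1B: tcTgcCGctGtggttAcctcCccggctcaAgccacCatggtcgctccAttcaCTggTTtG
RBCS2B: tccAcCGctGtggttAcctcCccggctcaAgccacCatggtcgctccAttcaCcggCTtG
RBCS3B: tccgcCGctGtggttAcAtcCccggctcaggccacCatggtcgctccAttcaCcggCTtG
Here RBCS1B, RBCS2B and RBCS3B differed from RBCS1A at 14, 13 and 12 of the 60 positions. Over the whole coding sequence the 3 genes of chromosome 5 were 96.7 to 97.25% identical to each other and 90.42 to 90.61% identical to RBCS1A. The longest identical run was one of 230 bases between RBCS1B (coding bases 307 to 536) and RBCS3B (322 to 551), and it is shown because no read of 50 bases from inside it can be placed in one gene.
RBCS1B and RBCS3B shared run: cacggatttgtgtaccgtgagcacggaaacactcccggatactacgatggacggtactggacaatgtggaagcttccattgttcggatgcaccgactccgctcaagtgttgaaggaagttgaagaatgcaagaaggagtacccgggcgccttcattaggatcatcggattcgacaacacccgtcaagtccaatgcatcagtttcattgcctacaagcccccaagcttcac
Of all 50-base stretches in the transcript, 21.44% in RBCS2B, 18.41% in RBCS3B, 13.93% in RBCS1B and 1.48% in RBCS1A also occurred elsewhere in the genome, and 0 in each of the other 6 genes. Reads from such stretches could be shared, dropped or assigned at random, and how the authors' counting treated them is not given in the sources used here. The split among the 3 genes of chromosome 5 is therefore uncertain, while that between them and RBCS1A is less so.

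The other 6 genes are single loci. RCA lies at chr2:16570746-16573692 on the minus strand. PRK (chr1:11532199-11534639), GAPB (chr1:16127353-16129895), GAPA1 (chr3:9794862-9797045), HCEF1 (chr3:20016837-20018822) and SBPASE (chr3:20709294-20711640) are on the plus strand. Their spliced transcripts range from 1621 bases for HCEF1 to 1977 bases for RCA. Another gene, read from the opposite strand, covers 9.44% of the exon bases of HCEF1. The library kit keeps the strand, but whether counting used it is not stated. GAPA1 shares 85.77% of aligned coding bases with its close copy GAPA2 and 71.34% with GAPB, but no 50-base stretch with either.

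Promoters of photosynthesis genes are known for light-responsive elements, among them the I-box (searched as GATAAG on both strands) and the G-box (CACGTG, which reads the same on both strands). The 250 bases before the annotated start of RBCS2B and HCEF1 are shown, because these were the members that held both. Capitals mark the 2 motifs, and CTTATC is the I-box on the other strand.
RBCS2B, chr5:15382072-15382321, minus strand: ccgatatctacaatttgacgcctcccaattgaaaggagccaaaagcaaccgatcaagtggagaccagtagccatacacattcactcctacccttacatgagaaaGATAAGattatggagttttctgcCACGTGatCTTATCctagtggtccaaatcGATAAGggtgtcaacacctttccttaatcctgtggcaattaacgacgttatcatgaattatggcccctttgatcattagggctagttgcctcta
HCEF1, chr3:20016587-20016836, plus strand: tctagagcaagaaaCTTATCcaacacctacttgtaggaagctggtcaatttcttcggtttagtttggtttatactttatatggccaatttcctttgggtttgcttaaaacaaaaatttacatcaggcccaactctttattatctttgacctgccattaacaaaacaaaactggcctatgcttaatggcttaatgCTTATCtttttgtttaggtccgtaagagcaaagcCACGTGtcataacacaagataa
RBCS2B held 3 I-boxes and 1 G-box, and HCEF1 held 2 and 1. RCA held an I-box and PRK a G-box. In all, 3 of 10 members held an I-box in this window, against 12.29% of 27443 nuclear gene promoters, and 3 of 10 held a G-box, against 6.49%. The annotated starts of these genes lie 93 to 469 bases before the start codon, so the window sits at different distances from the coding sequence. In the 600 bases before the start codon 9 of 10 members held an I-box (27.01% of all genes), 6 of 10 a G-box (10.56%) and 5 of 10 both (2.97%). SBPASE was the member without an I-box. The evening element, a clock motif searched as AAATATCT on both strands, was in 0 of 10, against 9.92% of all genes. These are matches of letters, with no measurement of binding.

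The libraries held 26994499 to 39382316 counts. Levels are CPM, the usual unit of counts relative to the library's total, scaled over the 18 libraries by TMM, a method that sets the bulk of genes level between libraries. Differences are log2 fold changes from edgeR's quasi-likelihood test on the libraries of the groups compared, with the standard error (SE), and a gene was called when the p adjusted over all genes tested by Benjamini and Hochberg's method was under 0.01. As a check of the labels, FC2 had 52.6 to 68.9 CPM in fc2 pub4 and 29.9 to 56.1 CPM in fc2, against 130.1 to 173.2 CPM in wt, over both light conditions. PUB4, which carries a point mutation that its mRNA level cannot check, had 20.6 to 28.1 CPM over all libraries. In cycling light PUB4 was called lower in fc2 pub4 (20.6 to 22.5 CPM) than in fc2 (26.8 to 28.1 CPM), as were 19% of genes. Its log2 fold change there was -0.36. The 10 genes took 4.61 to 4.76% of all counts in fc2 pub4, 2.41 to 3.05% in fc2 and 4.96 to 5.10% in wt in cycling light, and 3.56 to 3.84%, 3.56 to 4.10% and 3.81 to 4.42% in 24 h light.

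In cycling light every one of the 10 mRNAs was lower in fc2 than in wt. They stood at 22.2 to 50.1% of the wt mean, the 3 fc2 libraries were below all 3 wt libraries for each gene, and the log2 fold changes ran from -2.16 for RBCS2B to -0.99 for RCA. All 10 were called, whereas 21% of the 20122 genes tested were called lower and 21.8% higher, and 33.3% of those genes had fc2 libraries wholly below wt. The members' median was -1.14, beside -0.0017 for all genes tested. Scaled by library size alone, which moved the median of all genes to 0.23 and the calls to 2465 lower and 7147 higher (4233 and 4377 with TMM), the 10 members lay between -1.93 and -0.76. Because whole leaves were sampled, fewer cells of a type and less RNA of a gene per cell cannot be told apart.

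Levels can be set against each other per kilobase of exon, taken as the union of all exons annotated for a gene. This union is longer than the spliced transcript for RCA (2101 and 1977 bases), RBCS3B (1410 and 1184 bases) and HCEF1 (1652 and 1621 bases). In wt in cycling light RBCS1A (12863 ± 312 CPM per kb, SD, n = 3) and RCA (8507 ± 308 CPM per kb) were the highest of the 10, and RBCS1B (635 ± 20.1 CPM per kb) and HCEF1 (501 ± 24.2 CPM per kb) the lowest. The value of RBCS1B rests on an annotated exon length of 1894 bases, against 935 for RBCS2B, with 546 coding bases in each. In CPM, RBCS1B (1202) and HCEF1 (828) were the lowest as well.

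Among the small subunit genes RBCS1A had 6635, 6983 and 8649 CPM in fc2 and 16764, 16127 and 16039 CPM in wt, a log2 fold change of -1.13 (SE 0.11, adjusted p = 4.6e-05). The fc2 libraries lay far below wt, with fc2 replicate 3 the highest of them. RBCS1B had 400.0, 445 and 476 CPM in fc2, against 1246, 1175 and 1186 CPM in wt (-1.44 (SE 0.081, adjusted p = 2.83e-06)). For RBCS2B the values were 512, 539 and 687 CPM in fc2 and 2708, 2589 and 2525 CPM in wt, and its log2 fold change of -2.16 (SE 0.12, adjusted p = 2.47e-06) put it 61st from the lowest of the 20122 genes tested. RBCS3B had 1243, 1332 and 1666 CPM in fc2 and 4462, 4214 and 4322 CPM in wt (-1.61 (SE 0.11, adjusted p = 7.74e-06)). The log2 fold changes of the 3 genes of the chromosome 5 cluster were thus all below that of RBCS1A, a difference between genes that was not itself tested, and RBCS2B and RBCS3B were the members past an absolute log2 fold change of 1.5.

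The mRNA of RCA had 8390.4, 8357 and 10092 CPM in fc2, against 18293, 18201 and 17128 CPM in wt, which is -0.99 (SE 0.1, adjusted p = 5.28e-05) on the log2 scale and 50.1% of the wt mean. Among the enzymes of the reducing step, GAPA1 had 1879.5, 1838 and 2177 CPM in fc2 and 4141, 4228 and 3876 CPM in wt (-1.04 (SE 0.09, adjusted p = 1.87e-05)). GAPB, its partner subunit, had 1319, 1368 and 1669 CPM in fc2 and 3109, 3174 and 2955 CPM in wt (-1.07 (SE 0.1, adjusted p = 2.96e-05)). The 2 subunits were thus lower in fc2 than in wt by like amounts, with log2 fold changes closer together than their SEs.

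The 3 enzymes of regeneration were lower in fc2 than in wt by similar amounts. HCEF1 had 357, 373 and 433 CPM in fc2 and 842, 858 and 782 CPM in wt (-1.08 (SE 0.087, adjusted p = 1.39e-05)). SBPASE had 772, 826 and 1028 CPM in fc2, against 2089, 2084 and 1962 CPM in wt (-1.21 (SE 0.11, adjusted p = 2.46e-05)). PRK had 1172, 1297 and 1605 CPM in fc2, against 3033, 3163 and 2916 CPM in wt (-1.15 (SE 0.12, adjusted p = 4.43e-05)). For all 3 enzymes fc2 replicate 3 was the library nearest to wt, as it was for the other 7 members, and without it the members' log2 fold changes ran from -2.27 to -1.05.

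**Figure D1:**
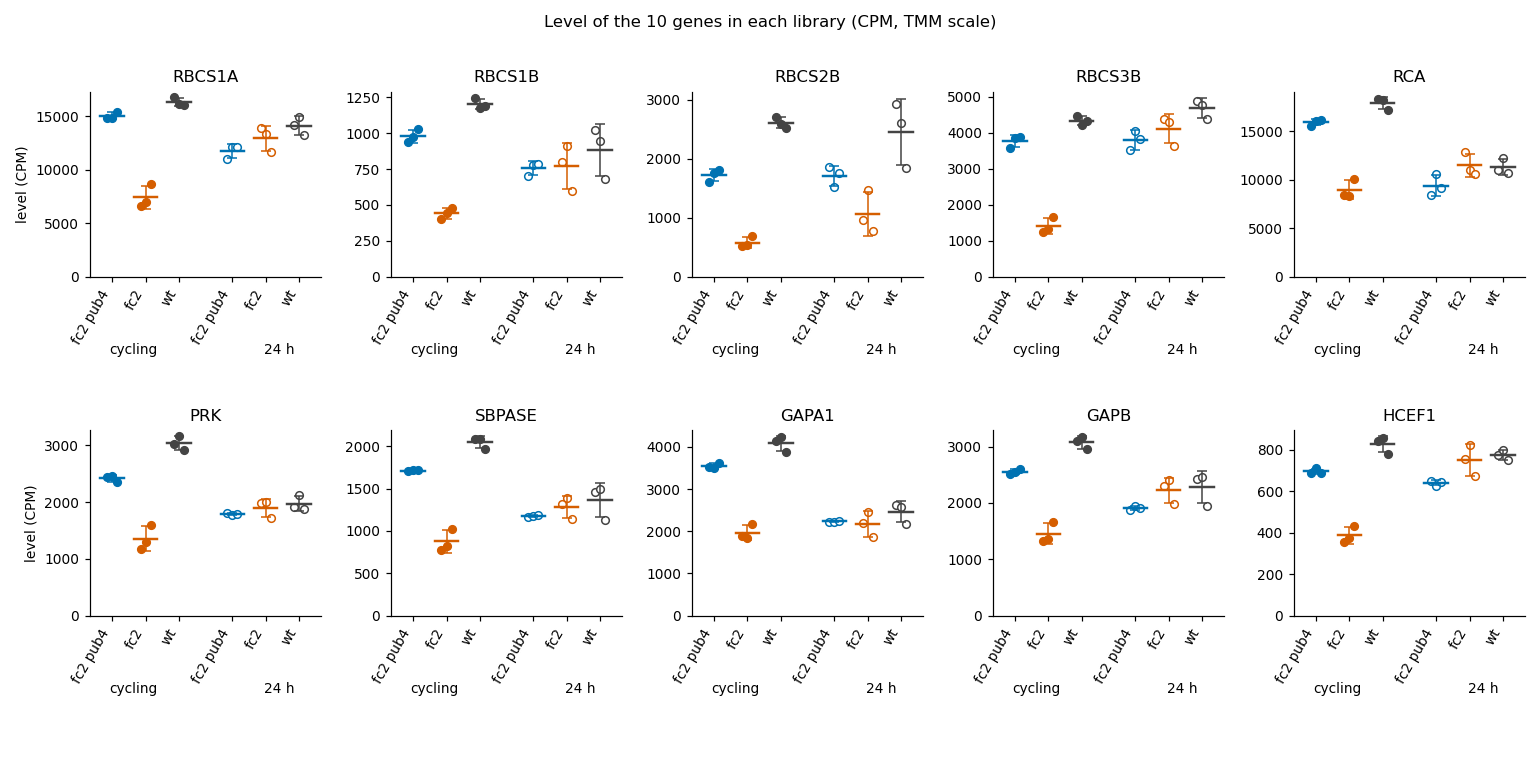
Level of each of the 10 genes in every library, in CPM on the TMM scale, with 1 panel per gene and the y axis starting at 0. Points are libraries (filled in cycling light, open in 24 h light), horizontal bars are means of 3 libraries and error bars are SDs; in cycling light the fc2 points lie below those of fc2 pub4 and wt in every panel, while in 24 h light the fc2 points overlap those of wt in every panel but RBCS2B.

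In 24 h light the same comparison called 0 of the 10 members. edgeR called 0.0763% of the 19664 genes tested lower and 0.239% higher, and 2992 genes had an unadjusted p under 0.05. The other 9 members had overlapping libraries and log2 fold changes between -0.20 for RBCS1B and 0.02 for RCA. As examples, RBCS1A had 13895, 13299 and 11619 CPM in fc2 and 14205, 14916 and 13219 CPM in wt, and RCA had 12846, 10990.5 and 10544 CPM in fc2 and 11025, 12204 and 10684 CPM in wt. RBCS2B stood apart. It had 955, 1474 and 766 CPM in fc2, against 2918, 2597 and 1834 CPM in wt, so that the groups did not overlap, which was so in this direction for 9.28% of genes. Its log2 fold change of -1.20 (SE 0.23, adjusted p = 0.0296) missed the threshold. It was called with no filter on low counts (adjusted p = 0.00678) and in a fit of all 18 libraries (adjusted p = 0.00136), and over all alternatives its adjusted p lay between 0.00136 and 0.128.

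In cycling light all 10 members were higher in fc2 pub4 than in fc2, and all 10 were called, with 17.4% of 20116 genes called higher and 19% lower. The libraries of fc2 pub4 lay above those of fc2 for every member, as they did for 31% of genes. RBCS2B differed most, with 1603, 1758 and 1805 CPM in fc2 pub4 and the fc2 values given above (1.56 (SE 0.12, adjusted p = 1.29e-05)). RBCS3B came next, at 3587, 3859 and 3868 CPM in fc2 pub4 (1.41 (SE 0.11, adjusted p = 1.86e-05)). RBCS1B had 937, 971 and 1027 CPM (1.14 (SE 0.084, adjusted p = 1.15e-05)) and RBCS1A 14858, 14869.8 and 15415 CPM (1.01 (SE 0.11, adjusted p = 9.05e-05)). This comparison and that of fc2 with wt share the fc2 libraries.

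The non-RBCS members differed between fc2 pub4 and fc2 by a narrower range. SBPASE had 1706, 1715 and 1714 CPM in fc2 pub4, a log2 fold change over fc2 of 0.96 (SE 0.11). GAPA1 had 3522, 3504 and 3625 CPM (0.84 (SE 0.087)) and GAPB 2508, 2558 and 2604 CPM (0.81 (SE 0.099)). HCEF1 had 690.5, 710.5 and 689.9 CPM in fc2 pub4 (0.84 (SE 0.084)). PRK, at 2444, 2469 and 2348 CPM in fc2 pub4, differed by 0.82 (SE 0.11), and RCA, at 15558, 16067 and 16110.1 CPM, by 0.82 (SE 0.1). Their adjusted p-values ran up to 0.000305. In each case the 3 fc2 pub4 libraries lay close together and above the highest fc2 library.

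Set against wt in cycling light, fc2 pub4 remained slightly lower. Its 3 libraries were below all 3 wt libraries for each of the 10 members, which was so for 21.3% of the 19658 genes tested, and 8 members were called lower, with 8.02% of genes called lower and 6.32% higher. The differences were small, at 66.0% of the wt mean for RBCS2B (-0.59 (SE 0.051, adjusted p = 8.02e-06)) and at 79.7 to 92.3% for the other 9. PRK followed RBCS2B (-0.32 (SE 0.042, adjusted p = 0.000187)). The uncalled members were RCA (-0.16 (SE 0.039, adjusted p = 0.0108)) and RBCS1A (-0.11 (SE 0.038, adjusted p = 0.0584)). With 1 spread estimated over all 18 libraries, 0 of 10 were called, and the count was 5 when wt replicate 1 or 2 or fc2 pub4 replicate 1 or 3 was left out.

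In 24 h light 0 of 10 members were called in fc2 pub4 against wt (0.354% of 19782 genes called lower and 0.409% higher, and 4120 with an unadjusted p under 0.05). All 10 log2 fold changes were nevertheless below 0, from -0.53 (SE 0.16) for RBCS2B to -0.15 (SE 0.092) for GAPA1, and 6 members had fc2 pub4 libraries below all wt libraries, as did 12% of genes. HCEF1 was one of them, with 652, 627 and 646 CPM in fc2 pub4 and 776, 801 and 753 CPM in wt (-0.29 (SE 0.068, adjusted p = 0.0452)). DESeq2 called 4 of the 10, namely RBCS1A, RBCS2B, RBCS3B and HCEF1. The shares of all genes given here are edgeR's, and that of DESeq2 was not computed, so the 4 have no background beside them. Against fc2 in 24 h light 0 of 10 were called (0.589% of 19851 genes lower, 0.897% higher, and 4418 with an unadjusted p under 0.05). RBCS2B had 1851, 1511 and 1752 CPM in fc2 pub4, above all fc2 libraries (as for 13.9% of genes), with a log2 fold change of 0.68 (SE 0.2, adjusted p = 0.073). Without fc2 replicate 2, the highest of the fc2 libraries, the value was 0.98 and RBCS2B was called (adjusted p = 0.00391).

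**Figure D2:**
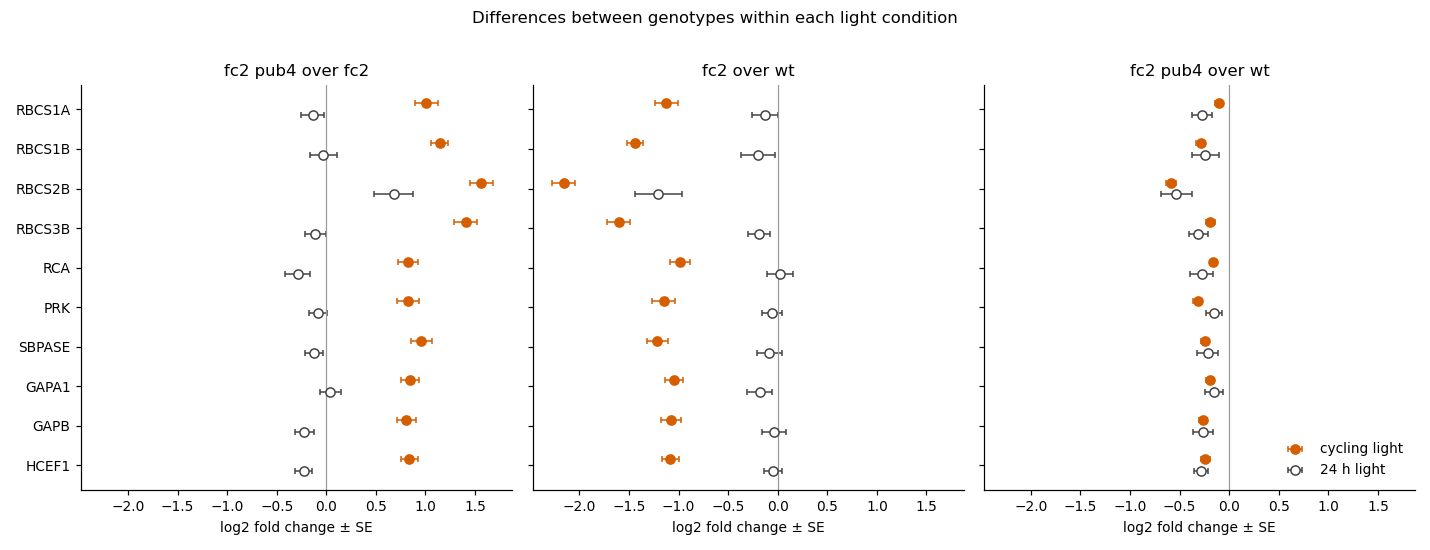
Log2 fold change between genotypes for each of the 10 genes, with error bars of 1 SE from edgeR, in cycling light (filled) and 24 h light (open). In cycling light fc2 lies at -2.16 to -0.99 against wt and fc2 pub4 at 0.81 to 1.56 against fc2, and in 24 h light RBCS2B is the gene that stands away from the rest.

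Cycling and 24 h light were also compared within each genotype. In wt 5 members were higher in cycling than in 24 h light (19.2% of 19600 genes called higher and 16.1% lower). They were GAPA1 (0.73 (SE 0.092)), RCA (0.66 (SE 0.095)), PRK (0.62 (SE 0.079)), SBPASE (0.59 (SE 0.1)) and GAPB (0.44 (SE 0.096)). GAPA1 had the cycling values given above and 2631, 2582 and 2173 CPM in 24 h light, with no overlap. None of the RBCS genes was called in wt, and RBCS3B was the member with a value below 0 (-0.11 (SE 0.081, adjusted p = 0.287)). RBCS1B, at 1024, 948 and 681 CPM in 24 h light, missed the threshold (0.44 (SE 0.13, adjusted p = 0.0148)) and was called when 24 h replicate 1 or replicate 3 was left out, with no filter on low counts, by DESeq2 and with the replicate block.

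In fc2 7 members were lower in cycling than in 24 h light, with 21.3% of 20168 genes called lower and 22.7% higher. RBCS3B changed most, with the cycling values given above and 4378, 4295 and 3643 CPM in 24 h light (-1.56 (SE 0.15, adjusted p = 2.37e-05)). HCEF1 had 756, 826 and 674 CPM in 24 h light (-0.98 (SE 0.11, adjusted p = 8.12e-05)). The others called were RBCS2B (-0.90 (SE 0.23)), RBCS1B (-0.83 (SE 0.15)), RBCS1A (-0.82 (SE 0.16)), GAPB (-0.64 (SE 0.13)) and SBPASE (-0.57 (SE 0.14)). PRK (adjusted p = 0.012), RCA (0.058) and GAPA1 (0.32) missed the threshold, with log2 fold changes of -0.50, -0.38 and -0.17. For RCA and PRK, which were higher in cycling light in wt, the fc2 libraries in cycling light were below those in 24 h light, and for GAPA1 they overlapped. The count of 7 was 3 without cycling replicate 1 or 2 and 4 without 24 h replicate 1 or 2.

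In fc2 pub4 7 members were higher in cycling than in 24 h light (20.7% of 19839 genes called higher and 19.4% lower). RCA had 8446, 10568 and 9145 CPM in 24 h light (0.77 (SE 0.08, adjusted p = 1.64e-05)), and GAPA1 had 2226, 2226 and 2254 CPM (0.68 (SE 0.055, adjusted p = 2.54e-06)). SBPASE (0.55 (SE 0.054)), PRK (0.45 (SE 0.055)), GAPB (0.43 (SE 0.055)), RBCS1B (0.38 (SE 0.067)) and RBCS1A (0.37 (SE 0.062)) were also called. RBCS2B, RBCS3B and HCEF1 were not, with log2 fold changes of 0.02, 0.00 and 0.13.

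Whether the difference from wt depended on light was tested as the interaction over 12 libraries. For fc2 it was called below 0 for 9 of 10 members, from -1.43 (SE 0.16) for RBCS3B to -0.87 (SE 0.17) for GAPA1, with 16% of 20411 genes called below 0 and 15.3% above 0. RBCS2B was not called (-0.97 (SE 0.3, adjusted p = 0.017)), though its value was further below 0 than that of GAPA1, with a larger SE. With no filter on low counts, and in a fit of all 18 libraries, all 10 were called. For fc2 pub4 it was called for 0 of 10 members, whose values lay between -0.17 (SE 0.091) for PRK and 0.17 (SE 0.1) for RBCS1A. At this threshold edgeR called 0.124% of 20185 genes below 0 and 0.124% above 0, and 3291 genes had an unadjusted p under 0.05.

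**Figure D3:**
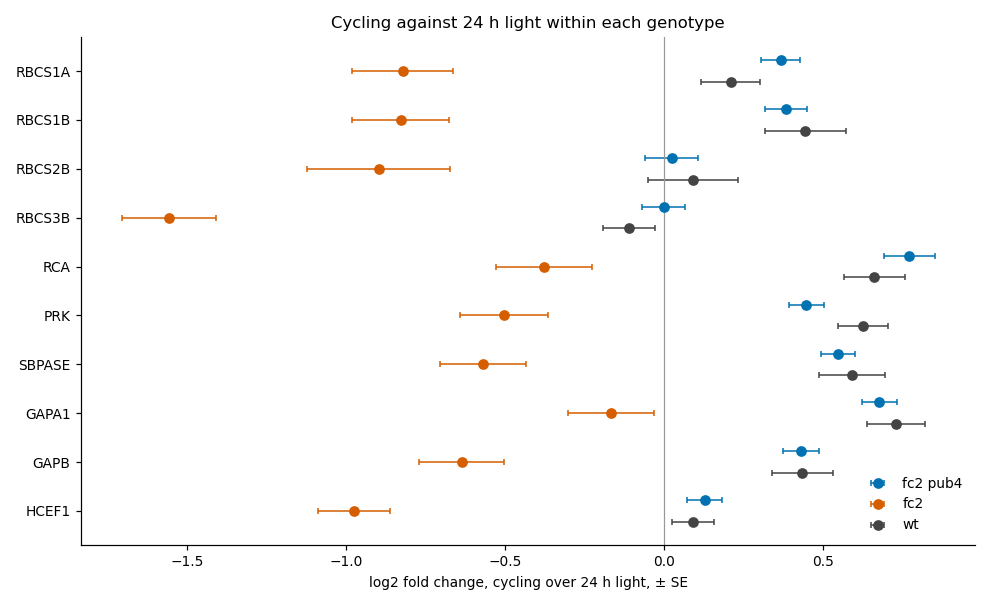
Log2 fold change of cycling over 24 h light for each of the 10 genes within fc2 pub4, fc2 and wt, with error bars of 1 SE from edgeR. All fc2 values lie below 0, from -1.56 for RBCS3B to -0.17 for GAPA1, whereas in fc2 pub4 and wt the values for RCA, PRK, SBPASE, GAPA1 and GAPB lie above 0.

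By level, fc2 in cycling light had the lowest mean of the 6 groups for all 10 members. For 8 of them its libraries were separate from those of the next group in order, and neither count was made over all genes. For RCA it overlapped fc2 pub4 in 24 h light (8946 ± 992 CPM in fc2 in cycling light and 9386 ± 1082 CPM in fc2 pub4 in 24 h light, SD, n = 3 each), and for GAPA1 it overlapped fc2 in 24 h light (1965 ± 185 and 2174 ± 309 CPM in cycling and in 24 h light). The highest mean was that of wt in cycling light for 9 members and that of wt in 24 h light for RBCS3B (4679 ± 272 CPM). The middle of the order was mostly unresolved. In 24 h light fc2 pub4, fc2 and wt overlapped as a chain for PRK (1802, 1770.2 and 1788, then 1981, 1999.5 and 1714, then 1912, 2120.0 and 1880.2 CPM), and likewise for SBPASE (1163, 1180.3 and 1190.1, then 1319, 1391 and 1135, then 1455, 1496 and 1128 CPM). GAPB had 1869, 1951 and 1906 CPM in fc2 pub4, 2299, 2408 and 1974 CPM in fc2 and 2429.9, 2453 and 1954 CPM in wt, and there the fc2 pub4 libraries lay just below both.

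The make-up of the small subunit mRNA was set beside its sum. The 4 genes together had 21519 ± 567 CPM in fc2 pub4, 9856 ± 1427 CPM in fc2 and 24453 ± 630 CPM in wt in cycling light (SD, n = 3 each). Per kilobase of exon, RBCS2B made 10.4 to 11.2% of the family's level in fc2 pub4, 7.94 to 8.18% in fc2 and 14.2 to 14.5% in wt. RBCS1A, in turn, made 69.6 to 71.1% in fc2 pub4, 75.8 to 76.1% in fc2 and 66.3 to 66.6% in wt. RBCS3B made 12.8 to 13.1% in fc2, below the 15.4 to 16.2% in fc2 pub4 and the 15.6 to 16.1% in wt. In 24 h light RBCS2B again had a lower share in fc2, at 6.36 to 10.11%, than in wt, at 12.4 to 17.0%, while fc2 pub4 overlapped wt at 11.2 to 14.7%. The RBCS2B share was thus lower in fc2 than in wt in both light conditions, while the RBCS3B share was not lower in 24 h light (19.5 to 20.1% in fc2 and 18.4 to 19.6% in wt). An exact two-sided permutation test gave p = 0.1 for each of the 23 of 36 share comparisons in which the groups did not overlap (adjusted p = 0.1565), which is the smallest value that 3 libraries against 3 allow, so that none can pass 0.05. These shares rest on the authors' division of reads among near-identical genes.

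**Figure D4:**
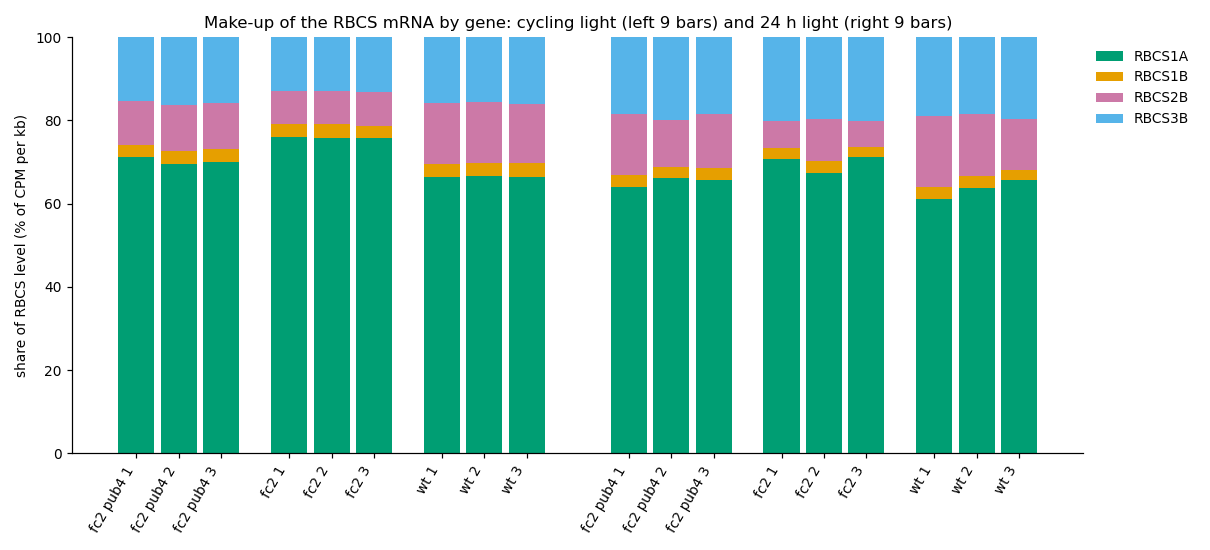
Share of each RBCS gene in the summed level of the 4 genes (CPM per kb of exon, in percent), with 1 stacked bar per library. The RBCS1A share is highest in fc2 in cycling light (75.8 to 76.1%), and the RBCS2B share is lower in fc2 than in wt in both light conditions.

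The large subunit, whose gene rbcL (ATCG00490) is in the plastid genome, gave few counts here, because the library kit selects polyadenylated RNA and plastid mRNAs mostly lack such tails. It had 12.97, 12.93 and 20.7 CPM in fc2 and 20.6, 19.3 and 20.4 CPM in wt in cycling light, which overlapped (-0.36 (SE 0.17, adjusted p = 0.108)). Its level in 24 h light was 32.9, 21.0 and 37.1 CPM in fc2 and 21.7, 19.2 and 14.3 CPM in wt (0.72 (SE 0.2, adjusted p = 0.108)). In fc2 its reads were lower in cycling than in 24 h light (-0.99 (SE 0.23, adjusted p = 0.00567)). Since the kit selects tailed RNA, the values say little of the amount of this mRNA, and they are not set against those of the nuclear small subunits.

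Of 15 further plastid enzymes of the cycle and CP12 proteins, 12 were lower and 3 higher in fc2 than in wt in cycling light, with a median log2 fold change of -0.67, and in 24 h light 0 of 15 were called. Of all genes tested, 21% were called lower and 21.8% higher in cycling light, and 0.0763% lower and 0.239% higher in 24 h light. GAPA2, the second A subunit of the dehydrogenase, was lowest, with 733, 753 and 947 CPM in fc2 and 2590.2, 2704 and 2449 CPM in wt (-1.66 (SE 0.11, adjusted p = 5.25e-06)). GAPA2 stood at 31.4% of its wt mean and GAPA1 at 48.1%, and whether the 2 genes differed in their change was not tested. The highest was TKL2, a transketolase of low level (29.7, 26.3 and 24.9 CPM in fc2 and 13.4, 14.9 and 15.5 CPM in wt, 0.89 (SE 0.091, adjusted p = 4.64e-05)). CP12-1 and CP12-2, which tether PRK and the dehydrogenase in an inactive complex in the dark, had log2 fold changes of -0.47 (SE 0.078) and -0.84 (SE 0.065).

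The factors that fold and assemble Rubisco were lower for 10 of 10 in fc2 in cycling light, with a median of -0.57, from RBCX1 (-1.16 (SE 0.29, adjusted p = 0.00772)) to the cochaperonin CPN20 (-0.24 (SE 0.059, adjusted p = 0.00678)). RBCX1 is an assembly chaperone and rested on 1.14 ± 0.43 CPM in fc2 and 2.58 ± 0.30 CPM in wt. In 24 h light 9 of these 10 had a log2 fold change above 0, up to 0.70 (SE 0.11) for the chaperonin subunit CPN60B2, and 0 were called. Beside these counts, 21% of all genes were called lower in cycling light, and 0.0763% lower and 0.239% higher in 24 h light. Photorespiration recycles the product that Rubisco makes when it takes up oxygen. All 11 tested genes of that list were lower in fc2 in cycling light (median -0.96), from GLDT, the T protein of glycine decarboxylase (-1.29 (SE 0.1, adjusted p = 1.35e-05)), to GGT1, a glutamate:glyoxylate aminotransferase (-0.71 (SE 0.088, adjusted p = 0.000139)), and PGLP1 was listed at 0 counts in every library and was not tested. In the PGLP1 transcript, 70.92% of the stretches searched as for the RBCS genes also occurred elsewhere in the genome. How reads from such stretches were counted is not given, so the 0 counts do not show that PGLP1 was silent. Whether its reads were left out of the counts was not tested. Of the 11 tested genes, 0 were called in 24 h light. The shares of all genes called are those given for the assembly factors.

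Cytosolic enzymes catalyse the same kinds of reaction outside the chloroplast. Of 7, 1 was lower, 2 were higher and 4 were not called in fc2 against wt in cycling light, near the 21% of all genes called lower and 21.8% called higher. GAPC1, a cytosolic dehydrogenase of glycolysis, had 865, 897 and 738 CPM in fc2 and 603, 586 and 565 CPM in wt (0.52 (SE 0.082, adjusted p = 0.000564)), which is the opposite direction to GAPA1 and GAPB. GAPC2 overlapped between the groups (-0.05 (SE 0.063, adjusted p = 0.547)). FBA6, a cytosolic aldolase, was highest (1.17 (SE 0.072, adjusted p = 3.83e-06)), and cyFBP, the cytosolic fructose 1,6-bisphosphatase, was lowest (-0.33 (SE 0.085, adjusted p = 0.00968)), a smaller change than that of its plastid counterpart HCEF1. In fc2 pub4 against fc2 in cycling light 5 of the 7 were called lower and 1 higher (median -0.40), among them GAPC1 (-0.65 (SE 0.084, adjusted p = 0.000215)), GAPC2 (-0.40 (SE 0.065, adjusted p = 0.000781)) and FBA6 lower and cyFBP (0.41 (SE 0.085, adjusted p = 0.00323)) higher. Of all genes tested in that comparison, 19% were called lower and 17.4% higher.

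**Figure D5:**
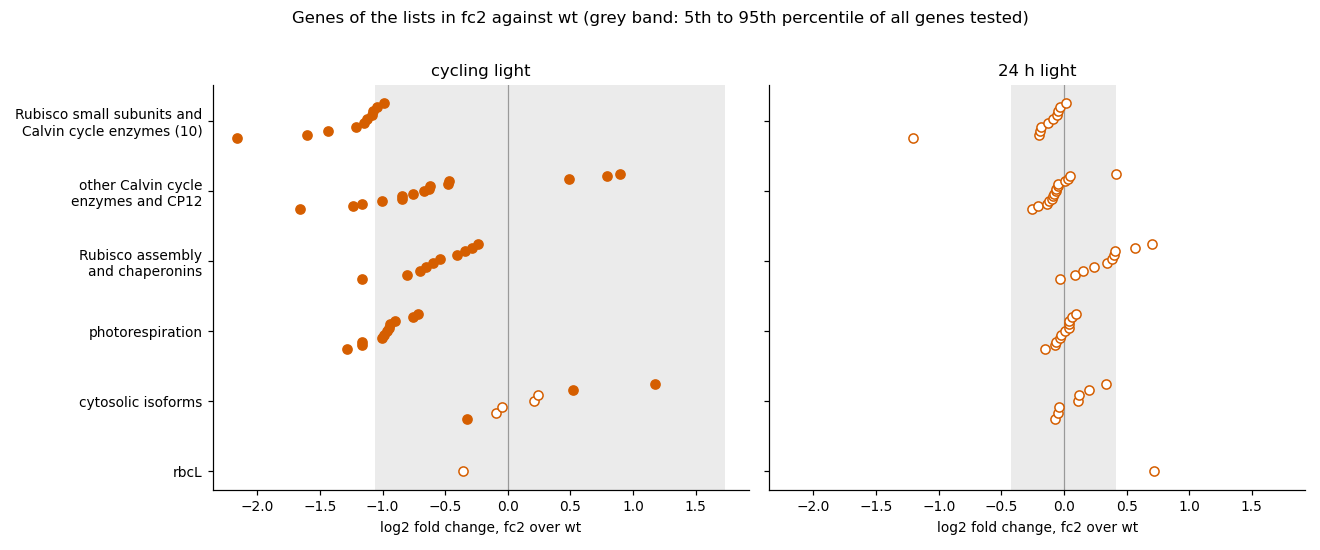
Log2 fold change of fc2 over wt for the genes of each list in cycling light and in 24 h light, with filled points for genes called and open points for genes not called; the grey band spans the 5th to the 95th percentile of all genes tested (-1.06 to 1.73 in cycling light and -0.42 to 0.41 in 24 h light). In cycling light the members and the lists of other cycle genes, Rubisco assembly factors and photorespiration genes lie mostly below 0.

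The mesophyll markers were lower with these genes in fc2 in cycling light, and the other cell type markers differed among themselves. The summed level of 3 mesophyll markers was 11661 to 11961 CPM in fc2 pub4, 3520 to 5025 CPM in fc2 and 13474 to 15212 CPM in wt in cycling light. All 3 were called lower in fc2 than in wt (21% of all genes tested) and higher in fc2 pub4 than in fc2 (17.4%). Against wt 2 of the 3 were called lower in fc2 pub4 (8.02%). The sum in 24 h light was 9228 to 10152 CPM in fc2 pub4, 11403 to 12624 CPM in fc2 and 12661 to 16498 CPM in wt. Of 4 epidermis markers 3 were called lower in fc2 than in wt in cycling light, and in fc2 pub4 1 was (CER1, -1.50), with sums of 819 to 882 CPM in fc2 pub4, 581 to 747 CPM in fc2 and 1020 to 1128 CPM in wt. All 4 guard cell markers were lower in fc2 than in wt and 2 of 4 in fc2 pub4, with sums of 70.1 to 74.1 CPM in fc2 pub4, 60.9 to 61.8 CPM in fc2 and 89.6 to 104.9 CPM in wt. The 2 markers of phloem companion cells were not called in fc2 against wt, but both were called lower in fc2 pub4 against fc2 and against wt, the opposite direction to the members in fc2 pub4 over fc2 (269 to 318 CPM in fc2 pub4, 408 to 465 CPM in fc2 and 457 to 509 CPM in wt). Of 8 flower markers 0 were called in fc2 against wt in cycling light, while fc2 pub4 against wt had 2 called lower, with sums of 3.52 to 8.73 CPM in fc2 pub4, 10.7 to 28.9 CPM in fc2 and 8.50 to 23.4 CPM in wt. In the 24 h groups their sum was 7.29 to 9.47 CPM in fc2 pub4, 19.6 to 45.2 CPM in fc2 and 4.41 to 8.54 CPM in wt, so that fc2 lay above wt, with 8 of 8 log2 fold changes of fc2 over wt above 0 (median 2.40) and 1 called. The fc2 libraries of 24 h light enter the 24 h, light and interaction comparisons given above. No marker of any list was at 0 counts over a whole group. The mesophyll markers are themselves genes of photosynthesis or its control, and the part of cell composition in the results was not tested.

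Across the 18 libraries the members' log2 CPM were correlated with r from 0.49 (RBCS3B and GAPA1) to 0.99, with a median of 0.88 over 45 pairs. These values mix differences between groups with those between libraries, and the libraries share genotypes and light conditions. RBCS1B followed the mean of the 10 genes most closely (r = 0.986) and RCA least (r = 0.845). Each member is itself part of that mean, which raises its r, while the genes outside the lists are not part of it. Among 12526 genes of at least 10 CPM on average, those outside the lists whose pattern was most like the members' mean were KEA1, a chloroplast envelope potassium transporter (r = 0.984), CA2, a carbonic anhydrase (r = 0.981), ECHID (r = 0.979), GAE6 (r = 0.979), CRB, a chloroplast RNA-binding protein (r = 0.972), PMDH2, a peroxisomal malate dehydrogenase (r = 0.972), and NdhM (r = 0.970) and NdhU (r = 0.969), subunits of the chloroplast NDH complex. Likeness was Pearson's r of log2 CPM over the 18 libraries and is given as a description.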

How the data were processed

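RNA was taken from whole leaves of pooled plants, and 18 libraries were made with a stranded kit for polyadenylated mRNA. The authors aligned single-end reads to TAIR10 and deposited raw counts per locus, with no normalization. Per the labels, HISAT2 2.1.0, StringTie 1.3.4 and DESeq2 were used, and the treatment of strand, overlapping genes and reads with several matches is not given in the sources used here. The nuclear sequences used here are those of RefSeq's TAIR10.1.

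Counts were analysed with edgeR 4.0.16 in R 4.3.3 (filterByExpr at its defaults, TMM, quasi-likelihood F-test on the 6 libraries of each pair, two-sided, Benjamini-Hochberg adjustment over all genes tested, threshold 0.01). The SE is the absolute log2 fold change divided by the square root of F. Interactions used 12 libraries. The procedure was tested on simulated data. limma 3.58.1 underlies edgeR, and DESeq2 1.42.0, other scalings and filters, a fit of all 18 libraries, the replicate block, the leaving out of organelle genes and of each library, and other thresholds were alternatives. The RBCS shares were compared in Python 3.11.15 with scipy 1.17.1, a test added after the values were seen. Log2 CPM used a prior count of 2.

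The text names the 10 members, rbcL, CP12-1, CP12-2, GAPA2, GAPC1 and GAPC2, the lowest and highest gene of each list in fc2 over wt in cycling light, the 8 genes most like the members' mean, and FC2 and PUB4. CPN60B2, PGLP1, FBA2, FBA3, CP12-3 and the marker CER1 were named after their values were seen. Members and lists were chosen with earlier results of these data known. Replicates were separate pools of leaves. Libraries of a group differed by more than sampling noise (chi-square per gene of 3.65 to 42.0).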

Additional observations from a re-analysis of the deposited data

Results flagged for a closer look

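For 9 of the 10 genes the difference between fc2 and wt was itself different in cycling and in 24 h light by the interaction test (edgeR, adjusted over 20411 genes), with 16% of genes called below 0. The interaction, as the log2 fold change of fc2 over wt in cycling light less that in 24 h light, was -1.43 for RBCS3B (adjusted p = 1.55e-05), -1.25 for RBCS1B (0.000379), -1.14 for SBPASE (0.000169), -1.11 for PRK (8.55e-05), -1.05 for GAPB (0.000179), -1.05 for HCEF1 (2.41e-05), -1.02 for RCA (0.000258), -1.01 for RBCS1A (0.000345) and -0.87 for GAPA1 (0.000706). These genes were lower in fc2 than in wt in 3 of 3 libraries in cycling light, and overlapped wt in 24 h light. With 3 libraries a group, no single library could be tested for standing apart.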

How the results depend on the processing

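Of 1660 recomputed log2 fold changes of members, 1584 kept their side of the threshold, 49 called values were no longer past it, 27 uncalled ones came past it and 0 called values reversed. All 10 members stayed called in fc2 over wt and in fc2 pub4 over fc2 in cycling light under every alternative but an absolute log2 fold change above 1.5, which left 2 and 1. That cutoff left 0 in fc2 pub4 over wt in cycling light, 1, 0 and 0 in cycling over 24 h light in fc2, in fc2 pub4 and in wt, and 0 in the fc2 interaction. In fc2 over wt in 24 h light 1 member was called with no filter, in the fit of all 18 libraries and at 0.05, and in fc2 pub4 over wt in 24 h light 4 were called by DESeq2 and 1 at 0.05. The 8 of fc2 pub4 over wt in cycling light became 5 with library size alone and 0 in the fit of all 18 libraries. For each of these the cause was not tested, and the share of all genes that DESeq2 called was not computed. With 1 library left out, called members numbered 5 to 8 in fc2 pub4 over wt in cycling light and 0 to 1 in 24 h light (1 without wt replicate 3), 0 to 1 in fc2 pub4 over fc2 in 24 h light, 3 to 8 in cycling over 24 h light in fc2, 4 to 6 in wt and 7 in fc2 pub4, and 9 to 10 in the fc2 interaction.

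Same-numbered replicates did not pair (correlations of their deviations from -0.149 to 0.196), and the replicate block left 6 members called in fc2 pub4 over wt in cycling light, 6 in cycling over 24 h light in wt and 5 in fc2, with the other counts as before. Library size alone changed the split of calls over all genes to 1025 lower and 2273 higher in fc2 pub4 over wt in cycling light (1577 and 1243 with TMM), 5252 and 2318 in fc2 pub4 over fc2 (3820 and 3509), 3415 and 5581, 5624 and 3008, and 4980 and 2656 in cycling over 24 h light in fc2, in fc2 pub4 and in wt (4302 and 4587, 3851 and 4111, and 3154 and 3763), and 1851 and 4968 in the fc2 interaction (3259 and 3122). The lowest level of a member in any library was 357 CPM, so depth was not the limit. The number of libraries, 3 a group, and the division of reads among the RBCS genes also limit the results.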

Other observations

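The other lists in fc2 pub4 gave values not described above. In cycling light 11 of 11 tested photorespiration genes, 9 of 10 Rubisco assembly factors and 11 of 15 other cycle genes were higher in fc2 pub4 than in fc2, with medians of 0.79, 0.55 and 0.51, and 2 of the 15 (FBA3 and TKL2) were lower. Of all genes tested in that comparison, 17.4% were called higher and 19% lower. Against wt in cycling light 8 of the 11 photorespiration genes and 8 of the 15 cycle genes were lower in fc2 pub4 (medians -0.28 and -0.20), while 0 of the 10 assembly factors were called (median -0.02). There 8.02% of all genes were called lower and 6.32% higher. The fc2 interaction was called below 0 for 11 of the 11, 9 of the 10 and 10 of the 15, and above 0 for 3 of the 15, up to 1.04 for CP12-3. Over all genes it was called below 0 for 16% and above 0 for 15.3%. FBA3, a plastid aldolase, and TKL2 are 2 of the 3 cycle genes that were higher in fc2 than in wt in cycling light, and CP12-3 is the third. FBA3 had 149 ± 5.78 CPM in fc2 and 107 ± 0.91 CPM in wt (SD, n = 3 each), against 2075 ± 273 CPM in fc2 and 4682 ± 258 CPM in wt for the aldolase FBA2.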
